A study of Mus musculus with 9 samples.

Results

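The Upf and Smg genes encode the core factors of nonsense-mediated decay (NMD), and 9 of them (Upf1, Upf2, Upf3a, Upf3b, Smg1, Smg8, Smg9, Smg5 and Smg6) were followed by symbol among the 57010 genes counted in the cortex of mouse embryos at E12.5. All 9 exceeded 10 reads in every embryo and so were among the 13680 genes tested, with 174 reads (Smg9) as the lowest value and 6789 reads (Smg1) as the highest. Bulk poly(A) RNA was sequenced from microdissected cortical tissue of 9 single embryos. The 3 Ctrl embryos are labelled WT. The 3 Cnot3 cKO embryos (Cnot3 lox/lox with Emx1-Cre) lacked Cnot3, a subunit of the CCR4-NOT deadenylase, in recombined cells, and in the 3 Cnot3;Trp53 dcKO embryos the same Cre also deleted Trp53 (lox/lox), which encodes p53. Emx1-Cre acts in radial glial cells of the dorsal telencephalon and their progeny, so that meninges, vessels, blood and microglia in the tissue kept both genes, and the sources do not say whether Ctrl embryos carried Cre or lox alleles. In bulk tissue, fewer cells of a type and less RNA per cell cannot be told apart.

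NMD degrades mRNAs on which a ribosome terminates early or far from the poly(A) tail. The helicase UPF1 is held at the terminating ribosome, is bridged by UPF2 and UPF3 proteins to exon junction complexes left downstream by splicing, and is phosphorylated by the SMG1 kinase, whose activity SMG8 and SMG9 restrain. Phosphorylated UPF1 then recruits the endonuclease SMG6 and the adaptor SMG5, which leads to deadenylation, decapping and exonucleolytic decay. NMD is known in the cortex for its role in progenitor proliferation and for the intellectual disability caused by UPF3B loss in humans, and many NMD factor mRNAs are themselves NMD substrates.

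The coding sequences of the 9 genes differ widely in how many codons end in G or C (GC3), a feature along which 5 of the 6 mutant libraries also differed from Ctrl over all genes. GC3 was 72.3% in Upf1, 71.5% in Smg9, 65.6% in Upf3a, 63.2% in Smg5, 53.7% in Smg6, 52.6% in Smg8, 44.9% in Upf2, 44.0% in Smg1 and 41.5% in Upf3b, around a median of 60.4% over 12099 genes tested. The 30 codons at the middle of 7 coding sequences (GENCODE M21, 5′ to 3′) are printed to show this range, with a G or C that ends a codon in capitals.
Upf1: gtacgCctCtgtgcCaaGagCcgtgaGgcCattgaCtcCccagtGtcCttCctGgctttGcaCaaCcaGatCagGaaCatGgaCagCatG
Smg9: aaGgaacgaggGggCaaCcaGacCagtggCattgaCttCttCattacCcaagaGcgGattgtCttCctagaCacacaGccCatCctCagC
Upf3a: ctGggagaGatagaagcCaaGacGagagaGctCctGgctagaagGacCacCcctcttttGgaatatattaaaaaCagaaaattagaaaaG
Smg5: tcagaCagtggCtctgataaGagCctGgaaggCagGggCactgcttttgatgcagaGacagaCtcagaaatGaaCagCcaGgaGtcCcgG
Upf2: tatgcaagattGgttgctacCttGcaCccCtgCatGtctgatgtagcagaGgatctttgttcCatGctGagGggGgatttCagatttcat
Smg1: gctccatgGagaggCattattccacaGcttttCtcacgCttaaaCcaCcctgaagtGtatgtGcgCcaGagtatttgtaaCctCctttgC
Upf3b: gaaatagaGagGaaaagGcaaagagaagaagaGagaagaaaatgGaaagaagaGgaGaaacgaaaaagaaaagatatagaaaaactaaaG
In these windows 24 of 30 codons of Upf1 (codons 548 to 577), 21 of Smg9 (246 to 275) and 17 of Smg5 (494 to 523) end in G or C. The count is 14 for Upf3a (197 to 226), below its share over the whole coding sequence, and also 14 for Upf2 (620 to 649), 14 for Smg1 (1815 to 1844) and 8 for Upf3b (222 to 251).

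The labels were first checked against the targeted genes. Cnot3 was at 117.3, 107 and 98.2 CPM (reads scaled by library size with TMM factors) in Ctrl, at 15.0, 17.3 and 14.6 CPM in cKO and at 7.33, 48.2 and 19.0 CPM in dcKO. Trp53 was at 215 to 254 CPM in Ctrl, at 164 to 167 CPM in cKO and at 15.1, 110.4 and 20.6 CPM in dcKO. Embryo 2 of dcKO thus kept more of both transcripts than the other 2 dcKO embryos. Total reads were 21193798 to 28869816 in Ctrl, 24835674 to 25946075 in cKO and 23275370 to 45073349 in dcKO. The summed level of 4 dorsal cortex markers (Emx1, Emx2, Pax6 and Lhx2) was 818 to 1322 CPM in Ctrl, 544 to 628 CPM in cKO and 725 to 1010.1 CPM in dcKO, while 4 ganglionic eminence markers reached at most 6.36 CPM, in dcKO embryo 2. Meningeal markers (5 genes) were at 770 to 848 CPM in Ctrl, 444 to 678 CPM in cKO and 316 to 511 CPM in dcKO. Choroid plexus and hem markers (4 genes) were at 5.08 to 23.0 CPM in Ctrl, 33.6 to 125 CPM in cKO and 30.4 to 120 CPM in dcKO. Endothelial markers (4 genes) were at 168 to 222 CPM in Ctrl, 165 to 225 CPM in cKO and 106 to 115 CPM in dcKO. Blood markers (5 genes) were at 6414 to 9153 CPM, 7952 to 12090 CPM and 4262 to 5812 CPM, and microglial markers (5 genes) at 34.5 to 42.3 CPM, 35.4 to 74.4 CPM and 12.8 to 30.6 CPM, in that order. Both lists, like the endothelial and meningeal ones, were below Ctrl in every dcKO embryo. In every cKO embryo the dorsal cortex and meningeal lists were below Ctrl. The choroid plexus and hem list was above Ctrl in every embryo of both mutants. Progenitor markers (4 genes) overlapped between the genotypes, at 2377 to 2733 CPM, 2350 to 2786 CPM and 2415 to 2771 CPM, as did markers of intermediate progenitors and neurons (6 genes), at 1175 to 1597 CPM, 877 to 1262 CPM and 686 to 1476 CPM. The part of these cells in the levels below was not tested.

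To ask whether loss of Cnot3 altered the NMD machinery at the RNA level, each gene was compared between genotypes. Smg5 and Upf1 averaged 45.8% to 50.2% of Ctrl in the 2 mutants, and no embryo of either mutant reached a Ctrl embryo for these 2 genes. Smg9 was low in every cKO embryo and in 2 of 3 dcKO embryos. The other 6 genes lay between 74.5% of Ctrl (Upf3b in cKO) and 144% (Upf2 in dcKO) by their fitted fold changes. None of the 9 passed the edgeR quasi-likelihood test over all genes, which called 0.0146% of all genes in cKO and 0.0% in dcKO. The deleted gene Cnot3 did not pass it either, at 14.5% and 23.2% of Ctrl, with edgeR adjusted p of 0.0509 and 0.0529. In dcKO the smallest edgeR adjusted p of any gene was 0.0502, the value that Smg5 also had. DESeq2 on the same genes called Smg5 and Upf1 lower in both mutants, beside 7.07% and 7.4% of all genes. The plot of levels shows all 9 genes in each embryo.

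**Figure D1:**
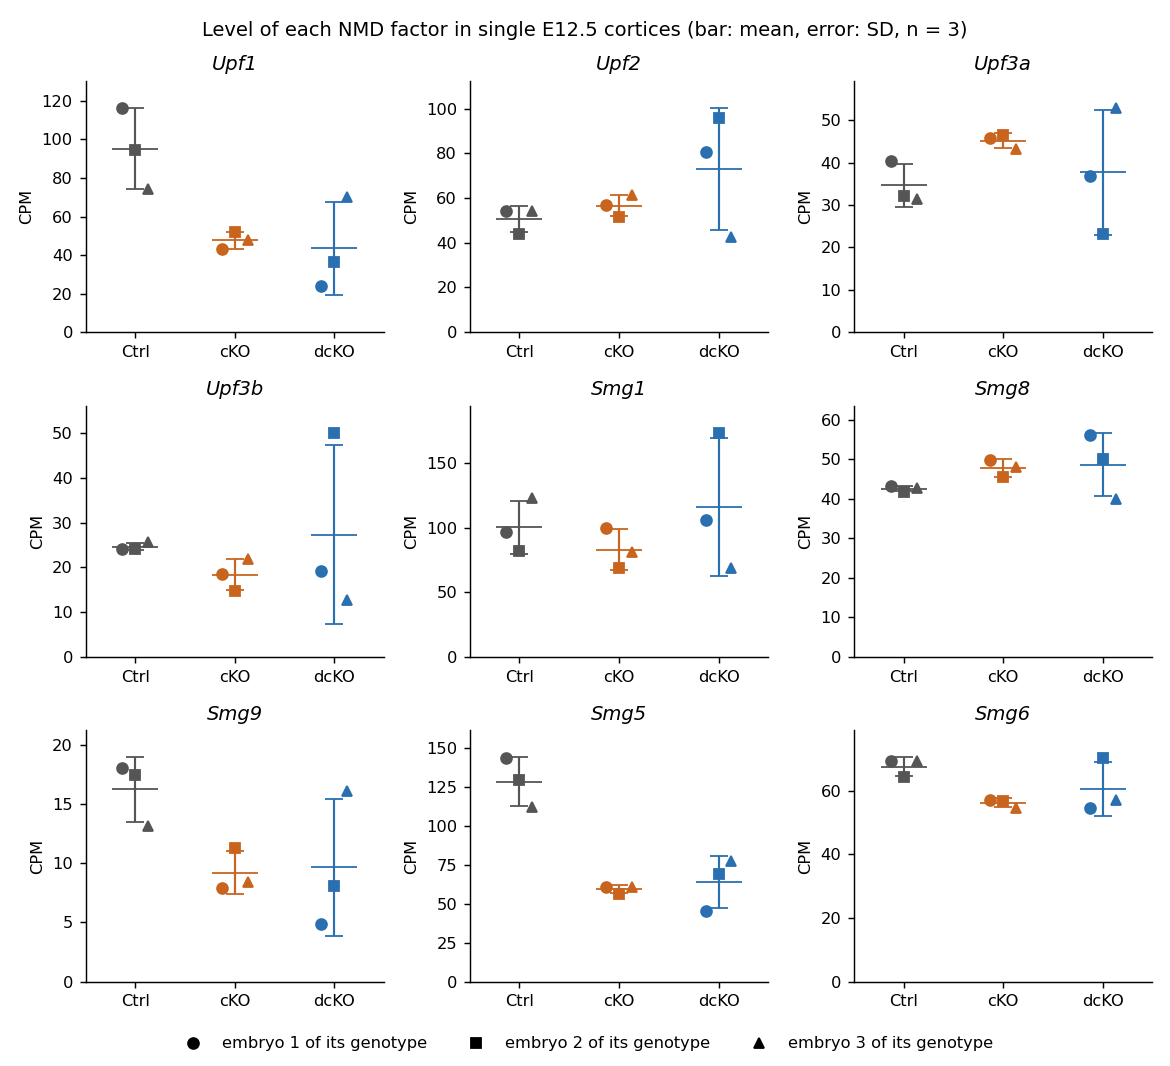
Level in CPM of the 9 NMD factors in each embryo, grouped by genotype, with horizontal bars for the mean and error bars for the SD (n = 3 embryos). Smg5 and Upf1 sit lower in all 6 mutant embryos than in the 3 Ctrl embryos, while dcKO embryos spread widely for most genes.

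Upf1 encodes the helicase on which all of NMD depends (ENSMUSG00000058301.9, chromosome 8 from 70331525 to 70353278, minus strand, GENCODE M21 on GRCm38). Its level was 116.3, 94.6 and 74.3 CPM in Ctrl, 43.2, 51.9 and 48.0 CPM in cKO, and 24.1, 36.2 and 70.3 CPM in dcKO. All mutant embryos lay below all Ctrl embryos, but dcKO embryo 3 was close to Ctrl embryo 3. The log2 fold change was -0.995 ± 0.345 (SE) in cKO, or 50.2% of Ctrl, with an adjusted p of 0.106 by edgeR and 0.0402 by DESeq2. For dcKO the value was -1.13 ± 0.346, or 45.8% of Ctrl, with an adjusted p of 0.0747 by edgeR and 0.0161 by DESeq2. The exact permutation test gave p = 0.10 in both comparisons, the smallest that 3 embryos against 3 allow. Upf1 shares 68 bases with Cers1 on the opposite strand.

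Upf2 encodes the scaffold between UPF1 and the UPF3 proteins (ENSMUSG00000043241.15, chromosome 2 from 5951469 to 6056703, plus strand). Its level was 54.1, 44.1 and 54.3 CPM in Ctrl, 56.8, 51.7 and 61.2 CPM in cKO, and 80.3, 95.7 and 42.5 CPM in dcKO. The cKO and Ctrl embryos overlapped, and 2 dcKO embryos were above and 1 below every Ctrl embryo. The log2 fold change was 0.16 ± 0.268 in cKO and 0.52 ± 0.268 in dcKO, with edgeR adjusted p of 0.741 and 0.221. Upf2 was above the Ctrl mean in 5 of 6 mutant embryos, while its partner Upf1 was below the Ctrl mean in all 6. Within an embryo, the ratio of Upf2 to Upf1 reads was 0.465, 0.466 and 0.731 in Ctrl, 1.32, 0.997 and 1.27 in cKO, and 3.34, 2.64 and 0.604 in dcKO. This ratio was higher in every cKO embryo than in any Ctrl embryo, and dcKO embryo 3 fell inside the Ctrl range.

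The paralogs Upf3a and Upf3b encode alternative bridges to the exon junction complex, of which UPF3B is the stronger activator of NMD. Upf3a (ENSMUSG00000038398.9, chromosome 8 from 13785615 to 13799193, plus strand) was at 40.5, 32.1 and 31.4 CPM in Ctrl, 45.7, 46.6 and 43.3 CPM in cKO, and 36.9, 23.2 and 52.9 CPM in dcKO. X-linked Upf3b (ENSMUSG00000036572.17, chromosome X from 37091678 to 37110322, minus strand) was at 24.1, 24.2 and 25.6 CPM in Ctrl, 18.5, 14.8 and 21.8 CPM in cKO, and 19.2, 50.1 and 12.6 CPM in dcKO. In cKO, all 3 embryos were above Ctrl for Upf3a and below Ctrl for Upf3b, while in dcKO both genes spanned the Ctrl range. The cKO log2 fold changes were 0.38 ± 0.274 for Upf3a and -0.42 ± 0.430 for Upf3b, with edgeR adjusted p of 0.396 and 0.554. The dcKO values were 0.12 ± 0.274 and 0.15 ± 0.429, with edgeR adjusted p of 0.791 and 0.834. The ratio of Upf3a to Upf3b reads was 1.23 to 1.68 in Ctrl and 1.99 to 3.15 in cKO without overlap, but in dcKO it was 1.92, 0.464 and 4.19. The single high Upf3b value belonged to dcKO embryo 2, in which Xist, the RNA of the inactive X chromosome, was at 296 CPM. Xist was at 0 in 5 embryos and at 94.6 to 134 CPM in Ctrl embryos 2 and 3 and cKO embryo 1, and its part in the Upf3b level was not tested.

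Among the genes of the kinase complex, Smg1 itself (ENSMUSG00000030655.16, chromosome 7 from 118131308 to 118243670, minus strand) was at 96.3, 81.9 and 122.5 CPM in Ctrl, 99.6, 68.7 and 80.8 CPM in cKO, and 106, 173 and 68.5 CPM in dcKO. The 3 genotypes overlapped, with log2 fold changes of -0.27 ± 0.311 in cKO and 0.21 ± 0.311 in dcKO and edgeR adjusted p of 0.605 and 0.671. Among the genes of the inhibitory partners, neither passed in either mutant in the unblocked fits of all 9 embryos by edgeR or DESeq2. Smg8 (ENSMUSG00000020495.14, chromosome 11 from 87077732 to 87086774, minus strand) was at 43.2, 41.8 and 42.8 CPM in Ctrl, 49.8, 45.5 and 48.1 CPM in cKO, and 56.0, 49.9 and 40.0 CPM in dcKO. Smg9 (ENSMUSG00000002210.12, chromosome 7 from 24399619 to 24422778, plus strand) was at 18.1, 17.5 and 13.1 CPM in Ctrl, 7.92, 11.3 and 8.41 CPM in cKO, and 4.83, 8.07 and 16.1 CPM in dcKO. Each cKO embryo was above Ctrl for Smg8 and below Ctrl for Smg9, and dcKO embryo 3 again lay at the Ctrl level of Smg9. The log2 fold changes of Smg8 were 0.17 ± 0.174 in cKO and 0.19 ± 0.174 in dcKO, with edgeR adjusted p of 0.568 and 0.476. Those of Smg9 were -0.82 ± 0.406 and -0.75 ± 0.405, with adjusted p of 0.223 and 0.242 by edgeR and 0.153 and 0.170 by DESeq2. The ratio of Smg8 to Smg9 reads was 2.39, 2.39 and 3.26 in Ctrl, 6.29, 4.02 and 5.72 in cKO, and 11.6, 6.19 and 2.49 in dcKO.

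Smg5, which encodes the adaptor that joins phosphorylated UPF1 to exonucleolytic decay, had the smallest edgeR p of the 9 genes in both mutants (0.000345 in cKO and 0.000704 in dcKO, unadjusted) (ENSMUSG00000001415.11, chromosome 3 from 88336260 to 88362338, plus strand). It was at 144, 129.5 and 112 CPM in Ctrl, 61.0, 56.3 and 61.0 CPM in cKO, and 45.1, 69.0 and 77.4 CPM in dcKO. The highest mutant embryo was below the lowest Ctrl embryo, and the cKO embryos differed little from each other. The log2 fold change was -1.11 ± 0.211 in cKO, or 46.2% of Ctrl, with an adjusted p of 0.0509 by edgeR and 0.000267 by DESeq2. It was -1.01 ± 0.211 in dcKO, or 49.7% of Ctrl, with an adjusted p of 0.0502 by edgeR and 0.000797 by DESeq2. With each of the 9 embryos left out in turn, edgeR passed Smg5 in 3 of 9 fits in cKO, with a highest adjusted p of 0.211, and in 2 of 9 in dcKO, with a highest of 0.206. Upf1 passed by edgeR in 2 and 1 of these fits, with a highest adjusted p of 0.318 and 0.242. In the same fits by DESeq2, added after seeing the data, Smg5 stayed under an adjusted p of 0.05 in 9 of 9 fits in cKO, where the highest was 0.0179, and in 9 of 9 in dcKO, where the highest was 0.0319. By DESeq2, Upf1 passed in 3 of 9 fits in cKO and 6 of 9 in dcKO, with a highest adjusted p of 0.239 and 0.146.

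Smg6 encodes the endonuclease that cuts the substrate near the stop codon (ENSMUSG00000038290.16, chromosome 11 from 74925823 to 75164448, plus strand). Its level was 69.3, 64.3 and 69.3 CPM in Ctrl, 57.2, 56.7 and 54.6 CPM in cKO, and 54.4, 70.3 and 57.1 CPM in dcKO. The cKO embryos were all below Ctrl, at 83.1% of it in the fit, and the dcKO embryos overlapped with Ctrl. The log2 fold changes were -0.27 ± 0.160 and -0.16 ± 0.159, with edgeR adjusted p of 0.307 and 0.528. Over whole gene spans, introns included, Smg6 shares 126 bases with Srr and 327 with the pseudogene Gm12335, both on the opposite strand. Whether reads of either entered the Smg6 count was not tested. The strand setting of the counting is not given in the sources used here. Between the 2 arms of decay, the ratio of Smg6 to Smg5 reads was 0.482, 0.496 and 0.617 in Ctrl, 0.938, 1.01 and 0.895 in cKO, and 1.21, 1.02 and 0.737 in dcKO. This was the one of the 4 ratios plotted within embryos in which all 6 mutant embryos were above all Ctrl embryos.

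**Figure D2:**
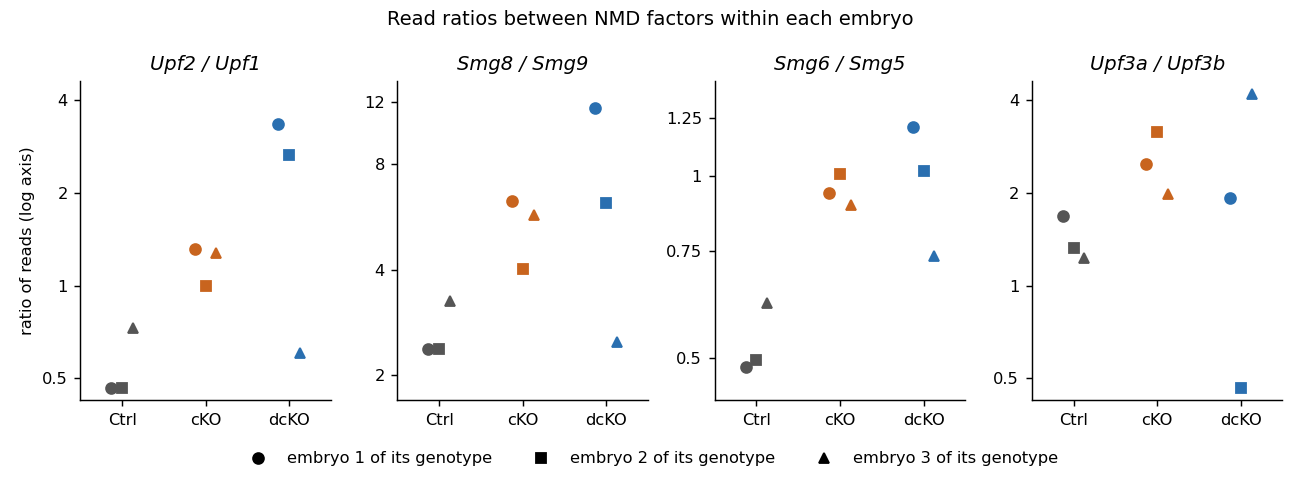
Ratio of reads between functional partners within each embryo, on a log axis, for Upf2 to Upf1, Smg8 to Smg9, Smg6 to Smg5 and Upf3a to Upf3b. The Smg6 to Smg5 ratio is above Ctrl in all 6 mutant embryos (0.737 to 1.21 against 0.482 to 0.617), while dcKO embryo 3 joins Ctrl in the first 2 panels.

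Over the 9 genes, 6 log2 fold changes were below 0 and 3 above in cKO, with a median of -0.27 beside 0.01 over all genes tested. In dcKO, 4 were below and 5 above, with a median of 0.12 beside 0.11 over all genes, a shift that TMM scaling left in place and against which the dcKO values are to be read. edgeR called 0 of 9 in cKO beside 0.0146% of all genes, and 0 of 9 in dcKO beside 0.0%. At an unadjusted edgeR p under 0.05, 2 of 9 were lower in cKO (11.7% of all genes) and 2 of 9 in dcKO (11.2%), Smg5 and Upf1 each time, and 0 of 9 were higher, beside 15.3% and 18.0% of all genes. DESeq2 called these 2 lower in cKO (7.07% of all genes) and in dcKO (7.4%), and called none of the 9 higher, beside 9.6% and 10.3% of all genes. Embryos did not overlap for 5 lower genes in cKO (Upf1, Upf3b, Smg9, Smg5 and Smg6, beside 28.0% of all genes) and for 2 higher genes (Upf3a and Smg8, beside 29.2%). In dcKO this held for 2 lower genes (beside 11.2%) and for 0 higher genes (beside 15.6%). The plot of fold changes shows the width of the intervals.

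**Figure D3:**
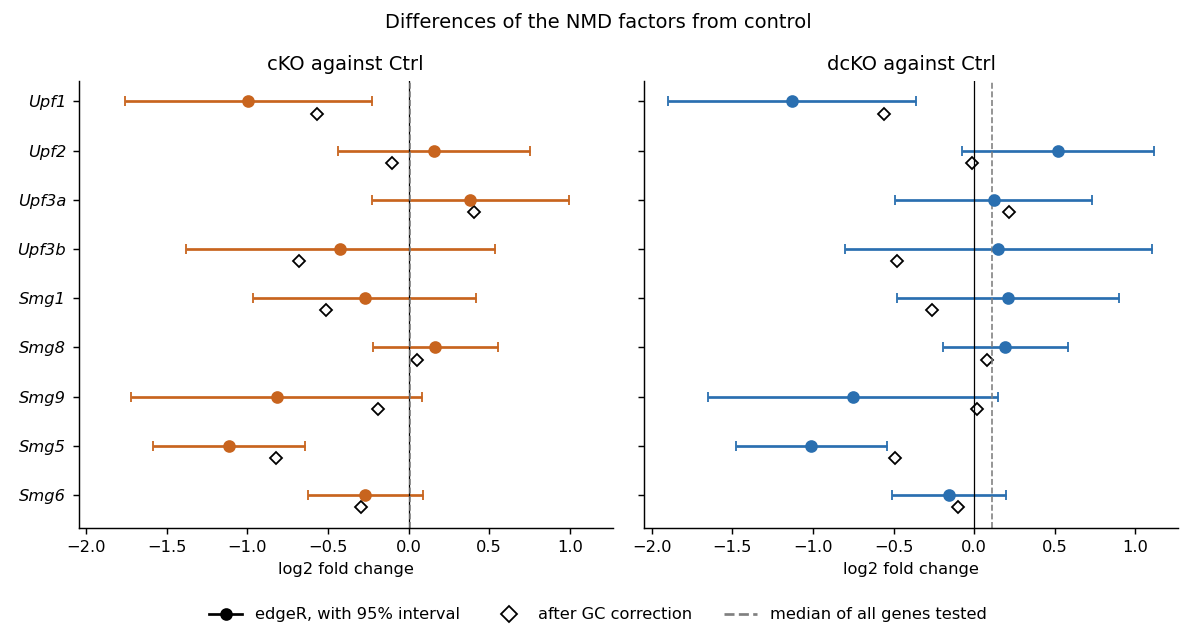
log2 fold change of each NMD factor against Ctrl in cKO (left) and dcKO (right), with circles and bars for the edgeR value and its 95% interval, diamonds for the value after a correction for GC content, and a dashed line for the median of all genes tested. The intervals of Smg5 and Upf1 lie below 0 in both mutants, and the diamonds of Smg9 (-0.19 and 0.02) lie near 0.

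The edgeR calls changed with the embryos in the fit. With only the 6 Ctrl and cKO embryos, edgeR passed Smg5 (adjusted p = 4.9e-05), Upf1 (0.000535), Smg9 (0.00786), Smg6 (0.0272) and Upf3b (0.0488) as lower, beside 24.2% of all genes, and Upf3a (0.0257) as higher, beside 24.0%. The fold changes of these 6 genes were the same to 2 decimals or moved in the last one. With dcKO embryo 3 alone left out of the model, edgeR passed Smg5 (adjusted p = 0.0051), Upf1 (0.00718) and Smg9 (0.0424) as lower in cKO, beside 14.8% of all genes. Without that embryo, edgeR also passed Smg5 (-1.17, adjusted p = 0.000897), Upf1 (-1.66, 0.000469) and Smg9 (-1.33, 0.00562) as lower in dcKO, beside 23.7% of all genes, and Upf2 (0.79, 0.00209) as higher, beside 25.5%. Without dcKO embryo 2, the dcKO embryo with the most Cnot3 and Trp53, edgeR passed 1 of the 9 in dcKO, Smg5 (-1.07, adjusted p = 0.016), beside 6.07% of all genes called lower. Fitted on the 6 Ctrl and dcKO embryos alone, edgeR passed 0 of the 9 and 0.0% of all genes, with adjusted p of 0.2 for Smg5 and 0.209 for Upf1.

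The descriptions in the labels give each embryo a code with a number in it, called the collection number here although its meaning is not stated, and 3 numbers are shared by a Ctrl and a mutant embryo. For Smg5, the cKO embryo was at 39.1% of the Ctrl embryo of its number in one pair and at 47.1% in the other, and the dcKO embryo was at 68.9% of Ctrl in the single dcKO pair. For Upf1, these values were 44.6%, 50.7% and 94.7%. The dcKO pair is Ctrl embryo 3, which held the lowest Upf1, Smg9 and Smg5 of the Ctrl group, and dcKO embryo 3, which held the highest of the dcKO group. Smg9 was at 62.4% and 48.0% of Ctrl in the cKO pairs and at 123% in the dcKO pair.

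The 3 genes with the lowest fold changes were among the 4 with the highest GC3, so GC3 was followed over all genes. Genes were split into 4 bins of like size by GC3, and the median log2 ratio to the Ctrl mean was computed in each embryo. In cKO the 3 embryos had 0.18 to 0.29 in the lowest bin and -0.39 to -0.21 in the highest. In dcKO embryos 1 and 2 had 0.59 and 0.79 in the lowest bin and -0.76 and -0.87 in the highest, whereas embryo 3 had -0.06 and 0.12. Embryo 3 of dcKO therefore lacked the slope that the other 5 mutant embryos showed, and it lay within the Ctrl range in both bins. Ctrl embryos 1 and 2 had -0.01 and -0.06 in the lowest bin and 0.13 and 0.05 in the highest. Ctrl embryo 3, in which Upf1, Smg9 and Smg5 were lowest among Ctrl, sloped in the direction of the mutants, with 0.08 and -0.17.

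**Figure D4:**
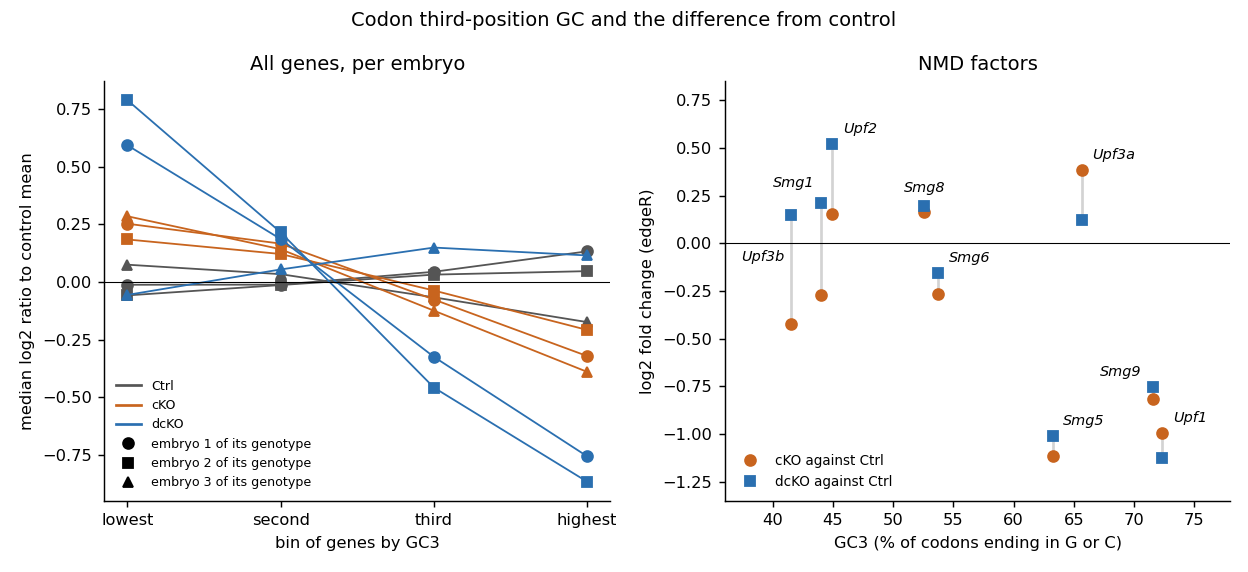
Left, median log2 ratio to the Ctrl mean in 4 bins of genes by GC3, one line per embryo. Right, GC3 of the 9 NMD factors against their log2 fold change in each mutant. The lines of 5 mutant embryos descend from the lowest to the highest bin and that of dcKO embryo 3 does not, and the 3 genes with the lowest fold changes (Upf1, Smg9 and Smg5) have GC3 of 63.2% or more.

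Set beside the median of their own GC3 bin, the 9 genes did not all stand where their bin did. Smg5, in the third bin, was 1.04 below its bin's median of -0.08 in cKO and 0.88 below its bin's median of -0.13 in dcKO, and 4.76% and 6.62% of that bin had a lower fold change. Upf1, in the highest bin, was lower than its bin's median of -0.30 by 0.69 in cKO and lower than -0.35 by 0.78 in dcKO, with 14.1% and 9.53% of the bin lower still. For Smg9, in the same bin, 21.3% and 25.7% of genes were lower still. Upf2, Smg1 and Upf3b share the lowest bin, whose median was 0.24 in cKO and 0.51 in dcKO. Upf2 was near that median (0.16 and 0.52), while Smg1 (-0.27 and 0.21) and Upf3b (-0.42 and 0.15) were below it in both mutants. Upf3a, in the third bin with Smg5, was above the bin's median, by 0.46 in cKO and 0.25 in dcKO.

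A loess correction of each embryo's counts for the GC content of the gene changed several of these values. In the study, optimal codons were those whose use rose with mRNA half-life. The mRNAs with the lowest share of them tended to rise most in Cnot3 mutants. Whether the correction also took out such a difference was not tested. Smg5 kept a log2 fold change of -0.83 in cKO with an edgeR adjusted p of 0.0349, the only one of the 9 to pass, beside 7.61% of all genes called lower in that fit. In dcKO its corrected value was -0.49 with an adjusted p of 0.153. Upf1 moved to -0.57 in cKO (adjusted p = 0.0525) and -0.56 in dcKO (adjusted p = 0.0819). Smg9 moved to -0.19 and 0.02, both near 0. Smg1 and Upf3b moved away from 0 in cKO, to -0.51 and -0.68, and changed sign in dcKO, to -0.26 and -0.48, with edgeR adjusted p of 0.092, 0.113, 0.403 and 0.286. Upf2 also changed sign, to -0.10 and -0.01.

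The fold changes of the 2 mutants share the 3 Ctrl embryos, so the mutants were also compared with each other. None of the 9 passed in dcKO against cKO by edgeR (beside 0.0146% of all genes) or DESeq2 (beside 0.431%), and none had an unadjusted edgeR p under 0.05 (beside 4.42%). For Smg5 the log2 difference of dcKO minus cKO was 0.10, with a 95% interval of -0.36 to 0.57. For Upf1 it was -0.13, with an interval of -0.89 to 0.63, so that sizable differences in either direction lie inside it. Without dcKO embryo 3, edgeR passed Upf2 and Smg1 as higher in dcKO than in cKO, beside 13.5% of all genes.

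Set together, the 9 genes made up 606, 530 and 546 CPM in Ctrl, 440, 403 and 427 CPM in cKO, and 427, 576 and 437 CPM in dcKO. Upf1 and Smg5 supplied 43.0%, 42.3% and 34.2% of this sum in Ctrl, 23.7%, 26.8% and 25.5% in cKO, and 16.2%, 18.3% and 33.8% in dcKO. Without these 2 genes the sum was 306 to 359 CPM in Ctrl and 295 to 336 CPM in cKO, which overlap, and 290 to 471 CPM in dcKO. To compare genes with each other, levels were divided by exon length. In Ctrl the order in CPM per kilobase was Upf1 (20.6 ± 4.55, SD, n = 3), Smg5 (18.5 ± 2.26), Smg8 (13.2 ± 0.229), Upf2 (9.28 ± 1.06), Smg6 (7.998 ± 0.343), Upf3b (6.16 ± 0.213), Upf3a (5.91 ± 0.865), Smg9 (4.39 ± 0.734) and Smg1 (4.18 ± 0.859). Embryos overlapped between Upf1 and Smg5, Upf2 and Smg6, Upf3b and Upf3a, and Smg9 and Smg1, and no other neighbours did. In cKO, Smg8 came first (14.8 ± 0.671), ahead of Upf2 (10.3 ± 0.866), Upf1 (10.3 ± 0.941) and Smg5 (8.54 ± 0.387), so that on exon length the helicase and adaptor genes no longer came first. The order changed with the length used. Per kilobase of coding sequence the Ctrl order began with Smg5 (42.1 ± 5.16), Upf1 (28.2 ± 6.24) and Upf3a (27.4 ± 4.01), and that of cKO with Upf3a (35.7 ± 1.35), Smg5 (19.5 ± 0.883) and Smg8 (16.1 ± 0.726). Upf3a has 1266 coding bases in 5865 bases of exon.

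Promoters of Upf1 and Smg9, the 2 genes of highest GC3, both of which averaged below Ctrl, are shown because they hold the same motif (300 bases, 250 before to 50 after the RefSeq start, GRCm38.p6, 5′ to 3′, capitals for matches to any of 8 motifs searched on both strands).
Upf1 promoter, chr8:70353230-70353529, minus strand: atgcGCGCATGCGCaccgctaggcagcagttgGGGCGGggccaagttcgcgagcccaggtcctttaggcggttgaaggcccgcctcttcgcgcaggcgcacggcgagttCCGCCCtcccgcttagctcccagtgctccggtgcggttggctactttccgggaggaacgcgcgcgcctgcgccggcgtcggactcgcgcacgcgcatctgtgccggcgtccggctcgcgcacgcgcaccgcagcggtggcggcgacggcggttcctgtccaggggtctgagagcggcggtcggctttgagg
Smg9 promoter, chr7:24399378-24399677, plus strand: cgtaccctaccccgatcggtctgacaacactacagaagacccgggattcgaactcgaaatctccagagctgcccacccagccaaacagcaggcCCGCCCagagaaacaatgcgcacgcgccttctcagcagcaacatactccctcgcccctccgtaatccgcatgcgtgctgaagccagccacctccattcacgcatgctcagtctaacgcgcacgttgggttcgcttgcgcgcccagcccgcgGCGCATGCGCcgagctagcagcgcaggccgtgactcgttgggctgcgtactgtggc
The motif of NRF1, a factor of nuclear-encoded mitochondrial genes, was searched as GCATGCGC and was found in these 2 of 9 promoters and in 2.71% of 32851 mouse promoters of that length. In both the motif matched on each strand at overlapping positions. The GC box (GGGCGG) was found in 7 of 9 promoters beside 35.7% of all, the CCAAT box (CCAAT) in 4 of 9 beside 37.4%, and the YY1 motif (AAGATGGCG) in that of Upf3b beside 1.4%. The ETS letters CCGGAAGT were in 0 of 9 windows beside 3.89% of all. The same held for the CREB/ATF letters TGACGTCA, beside 1.79% of all. Likewise 0 of 9 windows held the E-box, CACGTG, which 7.15% of all did. Nor did any hold the TATA box, searched as TATAAA and present in 13.6% of all. The Smg5 window held none of the 8. The 9 windows held 53.3% (Smg8) to 72.3% (Upf1) G or C, all above the median of 52.7% over all promoters. The part of this base content in the matches was not tested. A match is a run of letters and does not show that a factor was bound.

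Genes that act with these factors were described from 5 lists of 42 genes, of which 40 were tested. By edgeR 0 of the 40 passed in either mutant, beside 0.0146% of all genes in cKO and 0.0% in dcKO, with an unadjusted p under 0.05 for 2 lower and 2 higher genes in cKO and 1 lower and 2 higher in dcKO. Over all genes these shares were 11.7% lower and 15.3% higher in cKO and 11.2% lower and 18.0% higher in dcKO. DESeq2 called 1 lower (Robo3) and 2 higher (Pnrc2 and Gspt2) in each mutant, while of all genes it called 7.07% lower and 9.6% higher for cKO, and 7.4% and 10.3% for dcKO. The median log2 fold change of the 40 was -0.10 in cKO and 0.12 in dcKO, beside 0.01 and 0.11 over all genes. Pnrc2 encodes an adaptor between UPF1 and the decapping complex, and Gspt2 encodes a form of the release factor eRF3, which binds UPF1 at termination.

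Pnrc2 was at 118, 126 and 129 CPM in Ctrl, 196, 189 and 211 CPM in cKO, and 346, 246 and 190.2 CPM in dcKO. Every mutant embryo was above every Ctrl embryo, with log2 fold changes of 0.68 ± 0.209 in cKO (adjusted p = 0.081 by edgeR and 0.0416 by DESeq2) and 1.07 ± 0.210 in dcKO (adjusted p = 0.0502 by edgeR and 0.000939 by DESeq2). Gspt2 was at 7.99, 10.6 and 10.2 CPM in Ctrl, 18.6, 16.4 and 21.6 CPM in cKO, and 25.1, 19.3 and 13.5 CPM in dcKO. Its log2 fold changes were 0.97 ± 0.279 and 1.01 ± 0.279, with adjusted p of 0.0693 and 0.061 by edgeR and 0.0118 and 0.00994 by DESeq2. Its common paralog Gspt1 had log2 fold changes of 0.14 ± 0.272 and 0.41 ± 0.273, and the poly(A)-binding protein gene Pabpc1 had -0.38 ± 0.252 and -0.24 ± 0.252, all with edgeR adjusted p of 0.333 or more.

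**Figure D5:**
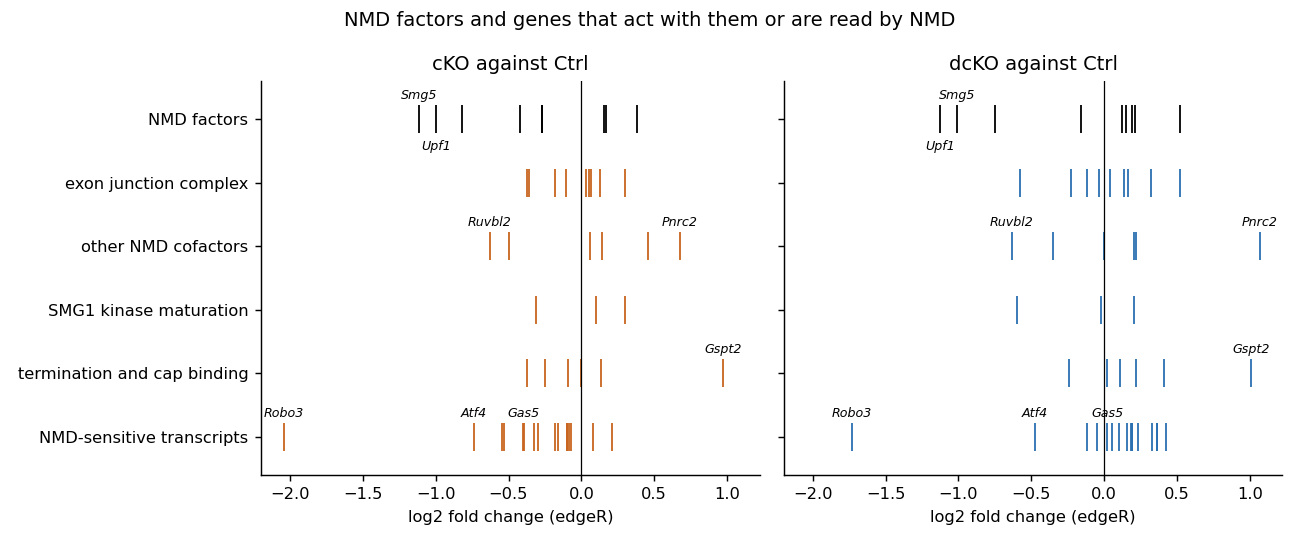
log2 fold change against Ctrl of the 9 NMD factors (top row) and of the 40 tested genes in 5 lists, one tick per gene, in cKO (left) and dcKO (right). Pnrc2 and Gspt2 are the highest ticks and Robo3 the lowest, and the exon junction complex genes lie between -0.58 and 0.52.

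None of the 9 exon junction complex genes passed in either mutant by edgeR, which called 0.0146% of all genes in cKO and 0.0% in dcKO, or by DESeq2, which called 7.07% lower and 9.6% higher in cKO and, for dcKO, 7.4% and 10.3%. Their median log2 fold changes were 0.03 in cKO and 0.04 in dcKO. Rnps1, a peripheral member, was at 341 to 411 CPM in Ctrl and 280.4 to 295 CPM in cKO, with a log2 fold change of -0.37 ± 0.168 (edgeR adjusted p = 0.189), and at 269 to 374 CPM in dcKO. Sap18 had -0.18 ± 0.191 in cKO, and Magohb and Pym1 had 0.52 ± 0.328 and -0.58 ± 0.401 in dcKO. Among 6 other cofactors only Pnrc2 was called, by DESeq2, while Nbas had 0.46 ± 0.234 in cKO and Ruvbl2, a subunit of the RUVBL ATPase that assists SMG1, had -0.63 ± 0.516 in cKO and -0.63 ± 0.516 in dcKO. Of the 3 genes that mature SMG1 and related kinases, Tti1 had 0.30 ± 0.165 and 0.20 ± 0.165, and Telo2 had -0.31 ± 0.524 and -0.60 ± 0.526. The edgeR adjusted p of these genes lay between 0.189 and 0.737 in the comparisons given.

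Transcripts known to be degraded by NMD in some form were listed to see whether they stood higher where Upf1 and Smg5 were low. Of 18 listed, 16 were tested, and in cKO the embryos of 8 were all below Ctrl and of 0 all above, beside 28.0% and 29.2% of all genes, with a median log2 fold change of -0.24. In dcKO, 1 was lower without overlap and 0 were higher, beside 11.2% and 15.6% of all genes, with a median of 0.17 beside 0.11. Gas5, a spliced host of small nucleolar RNAs, was at 107, 137 and 134 CPM in Ctrl, 103, 75.7 and 109 CPM in cKO, and 116.4, 189.5 and 78.3 CPM in dcKO, which overlap. Atf4, whose upstream reading frames make it a substrate, was at 143, 130.5 and 139 CPM in Ctrl, 81.6, 84.7 and 80.3 CPM in cKO, and 65.3, 145 and 86.0 CPM in dcKO. The fitted difference on the log2 scale was -0.74 ± 0.254 in cKO (adjusted p = 0.104 by edgeR and 0.0561 by DESeq2) and -0.48 ± 0.253 in dcKO (0.235 and 0.219). Robo3, an axon guidance receptor with an isoform that NMD degrades, was at 27.8, 23.7 and 18.7 CPM in Ctrl, 4.93, 6.80 and 5.28 CPM in cKO, and 2.36, 9.99 and 8.82 CPM in dcKO. No mutant embryo overlapped with Ctrl, and the log2 fold changes were -2.04 ± 0.470 (adjusted p = 0.0514 by edgeR and 0.000609 by DESeq2) and -1.73 ± 0.464 (0.0586 and 0.00342). Gadd45b failed the filter with 10 to 61 reads per embryo, and Ddit3 had 0 reads in all 9 embryos. Counts per gene do not separate NMD-sensitive isoforms from the others, so these values do not measure NMD activity.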

How the data were processed

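Cortices of 9 single E12.5 embryos (3 Ctrl, 3 cKO, 3 dcKO) were used. The authors deposited raw counts per gene, from TruSeq Stranded mRNA libraries read in pairs on a NovaSeq. Per the submitters' processing notes the tools were FastQC, cutadapt, STAR, featureCounts and DESeq2 on mm39, and their versions, the annotation release and the strand setting are not given in the sources used here. Of 57010 genes, 30138 had no read in any embryo. Genes needed over 10 reads in each of the embryos, which left 13680, and were tested in R 4.3.3 with the quasi-likelihood test of edgeR 4.0.16, TMM factors and one model of all 9 embryos, with Benjamini-Hochberg adjustment over all genes and a threshold of 0.05. Alternatives were DESeq2 1.42.0, limma 3.58.1 (voom), other scaling and filters, the 6 embryos compared, each embryo left out, blocks for replicate or collection number (the number in the label descriptions), and a GC correction, and a two-sided exact permutation test was run per gene. The standard error is that of the edgeR log2 fold change. CPM use TMM factors.

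The labels give each embryo's genotype, and the embryo is the replicate. The model had no block. Gene positions, lengths, GC and GC3 (longest coding isoform) came from GENCODE M21 on GRCm38, matched for 52081 genes by Ensembl ID, since no mm39 annotation was used here. Of the genes tested, 13561 had a GC value. Promoters came from RefSeq on GRCm38.p6. The GC correction fitted loess with a span of 0.3 to each embryo's log2 counts.

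The 9 genes and the partner lists were chosen with earlier results of these data known. Of each partner list, the 2 genes with the smallest edgeR p in each mutant were named, plus Gas5, Gadd45b and Atf4. Ddit3 is named beyond this rule, as a listed gene that was not tested. DESeq2 with each embryo left out or with the replicate block, and the fit of genes with a GC value, were added after seeing the data. One gene is not reported here. Scripts were tested on simulated counts. Of the 2-fold changes put in, edgeR recovered 13.1% in cKO and 14.1% in dcKO, and DESeq2 29.3% and 36.4%. False calls among 13501 genes were 6 and 3 by edgeR and 42 and 45 by DESeq2. Figures and tables used Python 3.11.15, NumPy 2.4.6, pandas 2.3.3, SciPy 1.17.1 and matplotlib 3.10.9.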

Additional observations from a re-analysis of the deposited data

How the results depend on the processing

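Smg5 was lower in both mutants under each of 31 alternatives, with log2 fold changes of -1.22 to -0.82 in cKO and, for dcKO, -1.41 to -0.49, and had an adjusted p under 0.05 in 20 and 17 of them. Upf1 was lower under each of the 31 too, at -1.16 to -0.57 in cKO and, for dcKO, -1.83 to -0.08, and passed in 9 and 11.

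The counts of NMD factors and of partner genes passing in cKO, both 0 in edgeR, became 2 and 3 with DESeq2 (which called 16.7% of all genes), 6 and 18 with limma voom and quality weights (54.9%), 1 and 1 with upper-quartile factors (4.41%), 1 and 1 without a filter (3.67%), 6 and 16 when fitted on the 6 embryos compared (48.2%), 3 and 17 blocked by collection number (45%), and 1 and 6 with the GC correction (13.3%). In dcKO they became 2 and 3 with DESeq2 (17.7% of all genes), 5 and 13 with voom (52.7%), 2 and 2 without a filter (3.08%), 4 and 17 with the collection block (29.0%), and 1 and 1 on genes with a GC value (2.36%). In dcKO against cKO the collection block gave 2 and 6 (19.2%). The members are 9 and the partner genes 40, and upper-quartile factors put the median of all genes in cKO at 0.12. The collection block leaves 1 residual degree of freedom and rests on a single dcKO pair.

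With each embryo left out in turn, by edgeR and DESeq2, the factors passing numbered 0 to 3 in cKO, 0 to 4 in dcKO and 0 to 5 in dcKO against cKO. The partner genes numbered 0 to 6, 0 to 14 and 0 to 19. The highest in cKO, 3 and 6, occurred together without dcKO embryo 3, where edgeR called 29.7% of all genes and DESeq2 36.2%. DESeq2 also passed 3 factors without dcKO embryo 1 (23.6% of all genes) and 6 partner genes without dcKO embryo 2 (27.1%). The highest counts in dcKO, 4 and 14, came without dcKO embryo 3, both by edgeR (49.2% of all genes called) and by DESeq2 (52.7%). In dcKO against cKO the highest, 5 and 19, also came without that embryo, by a DESeq2 fit that called 34.2% of all genes. The median of the factors ran from -0.43 to -0.25 in cKO, from -0.31 to 0.13 in dcKO and from -0.019 to 0.29 in dcKO against cKO. In dcKO, Upf3a ran from -0.22 to 0.37, Upf3b from -0.66 to 0.49 and Smg1 from -0.24 to 0.48. In dcKO against cKO, Upf1 ran from -0.66 to 0.16 and Smg5 from -0.057 to 0.30.

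Directions also turned elsewhere. The GC correction gave Upf2 as -0.10 in cKO and -0.014 in dcKO, and in dcKO Upf3b as -0.48, Smg1 as -0.26, Smg9 as 0.019 and the median as -0.10. In dcKO voom gave Upf3b as -0.26 and the median as -0.25. The collection block gave Upf2 as -0.35, Upf3b as -1.02, Smg1 as -0.84, Smg8 as -0.10, Smg9 as 0.30 and the median as -0.28 in dcKO. In dcKO against cKO, Upf1 was 0.99 with the collection block and 0.0080 with the GC correction, and Smg5 was -0.30 with voom. The cause of these turns was not tested.

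The replicate number as a block in edgeR left 0 factors passing in each comparison, and 0.0% of all genes. DESeq2 with the replicate block passed 1 factor and 1 partner gene in cKO (10.3% of all genes) and 2 and 3 in dcKO (10.8%), and gave Upf3b as -0.0079 in dcKO. The GC correction with the replicate block gave Upf2 as -0.10 in cKO, and in dcKO Upf2 as -0.011, Upf3b as -0.54, Smg1 as -0.26 and the median as -0.11. The numbers are not known to pair the embryos, since the labels do not say so. Deviations from the genotype mean correlated at a mean of -0.169 over 9 pairs of one number and 0.0835 over 18 pairs of different numbers. Deviations within a genotype sum to 0, which ties these 2 values to each other, so they cannot decide the question. Of the 13680 genes tested, 0 were lower and 2 higher by edgeR in cKO and 0 passed in dcKO, whereas DESeq2 gave 967 lower and 1313 higher for cKO and 1012 and 1414 for dcKO. Fitted on the 6 embryos compared edgeR called 3305 and 3285 in cKO and 0 and 0 in dcKO, and without dcKO embryo 3 it called 2031 and 2027 in cKO and 3247 and 3486 in dcKO.

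With 3 embryos a genotype the exact test cannot go below 0.10. The factors had 174 reads or more in every embryo, and whether more depth would change a call was not tested.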

Other observations

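For each of the 9 genes the closest of 13679 other genes over the 9 embryos was found, by the root mean square difference of log2 CPM after centring on the Ctrl mean. These values describe likeness of level only, and all genes share the same libraries. The nearest to Upf1 was Dab2ip (difference 0.0747), at 110, 93.9 and 71.2 CPM in Ctrl, 39.4, 54.9 and 42.2 CPM in cKO and 23.4, 33.9 and 70.3 CPM in dcKO. The nearest to Smg5 was Zc3h7b (0.0669), at 322, 283 and 256 CPM in Ctrl, 149, 134 and 142 CPM in cKO and 101, 155 and 184 CPM in dcKO. Smg9 was nearest to Tmem134 (0.0969), Upf2 to Strbp (0.0589), Upf3a to Ddx51 (0.0812), Upf3b to the pseudogene Hmgn2-ps1 (0.107), Smg1 to Mib1 (0.112), Smg8 to Atpif1 (0.0547) and Smg6 to Brd2 (0.0547).

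Among pairs within the 9 genes, the closest was Upf1 and Smg9, at a difference of 0.240, where Upf1 ranked 211 among the neighbours of Smg9 and Smg9 ranked 235 among those of Upf1. Smg5 had Upf1 at rank 299 and Upf3b had Smg1 at rank 572. For Smg1, Upf2, Smg8, Upf3a and Smg6 the nearest of the 9 ranked from 1297 to 2783, so the 9 genes did not share one profile over these embryos.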
